A study of Caenorhabditis elegans with 6 samples.

Results

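The 9 genes hsp-1, hsp-3, hsp-4, hsp-6, hsp-60, hsp-12.6, daf-21, hsf-1 and dnj-10 of Caenorhabditis elegans encode molecular chaperones of the cytosol, the endoplasmic reticulum and the mitochondrion, and the transcription factor that governs many of them. They were taken by gene symbol from the deposited table, with all of their probe sets, which gave 14 probe sets, 2 for each of 5 genes and 1 for each of 4, among 17309 genes and 22548 probe sets. Whole mixed-stage embryos gave the RNA for 6 Affymetrix arrays. The mutant group, with 3 arrays, was mir-35-41(nDf50) in strain VT2935 lacking nEx1187 (by its name an extrachromosomal array), and its deletion removes microRNAs of the mir-35 family, which are made in embryos. The wild type group, also with 3 arrays, was strain N2. For both groups the parents grew on agar plates supplemented with chicken egg yolk, and 24 hours after an upshift from 20 to 25 °C hypochlorite freed the embryos, so the warmth itself is shared by both groups and is not a comparison here. No age beyond mixed-stage embryo is given, and nothing in the labels says that the arrays of a group came from separate cultures, so p-values measure only the spread between these arrays, which may be technical. Every mutant array came from the same strain, so the deletion and the rest of that strain's background cannot be told apart.

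Chaperones bind unfolded protein chains and let them fold, with ATP as fuel in the HSP70, HSP90 and HSP60 families. In the nematode, HSF-1 drives cytosolic chaperone genes, the kinase IRE-1 and the factor XBP-1 drive hsp-4 when proteins misfold in the endoplasmic reticulum, and the factor ATFS-1 drives hsp-6 and hsp-60 when mitochondrial protein folding fails. The genes hsp-4, hsp-6 and hsp-60 are widely used as reporters of these responses in living worms.

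Of the 14 probe sets, 2 passed the threshold, an adjusted p under 0.05, and both were those of hsp-60, which were lower in the mutant. Differences are mutant minus wild type on the log2 scale of normalized intensity, tested with limma and adjusted by Benjamini and Hochberg's method across the whole array. Over all 22548 probe sets 3.48% passed, 0.648% as lower and 2.83% as higher. An unadjusted p under 0.05 was found for 7 of the 14, of which 6 were lower, beside 9.55% lower and 9.84% higher at that level over all probe sets. Those 6 are 2 each of hsp-60, hsf-1 and dnj-10. By the brightest probe set of each gene, 3 of the 9 members were lower at that level, beside 9.65% of all genes. The median difference of the 14 probe sets was -0.21, beside -0.05 over all probe sets, and 12 of the 14 lay below 0, as did 60.7% of all probe sets. These figures count 5 genes by 2 probe sets each. By the brightest probe set of each gene the median was -0.08, beside -0.05 over all genes, and 7 of the 9 lay below 0. Every mutant array lay below every wild type array for 5 of the 14 and above them for 1, beside 13.3% and 11% of all probe sets. The array groups overlapped for the other 8. The 5 were both probe sets of hsp-60, both of hsf-1 and 1 of daf-21.

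Of all calls in the series 639 were higher and 146 lower, so that 81.4% were higher, and with each array centred on its own median 683 were higher and 291 lower, or 70.1%. The maternal markers deviated from their mean over the 6 arrays by a median of 0.22 on mutant replicate 1. The other mutant arrays gave -0.26 and -0.28 and the wild type arrays 0.17, 0.19 and -0.16. None of the 8 maternal markers and none of the 7 first zygotic markers passed, but the summed intensity of the latter ran from 1229 to 1748 in the mutant and from 1951 to 2209 in wild type, without overlap. The 4 pharynx markers, of which none passed, summed to 1849 to 3658 in the mutant and 1518 to 1924 in wild type. In wild type every measured maternal, zygotic, muscle, pharynx, epidermal and intestinal marker was above the control probe sets for yeast genes, to which worm RNA should not bind. Of the 3 measured epidermal markers rol-6 rose by 1.16 and elt-3 fell by 0.60 (limma adjusted p = 0.0148 and 0.03), and dpy-7 did not pass. Of 4 adult markers vit-6 and col-19 were above the controls in wild type (mean log2 intensity 6.11 and 5.58), while vit-2, vit-5 and both sperm markers were not. No adult marker passed, and the part of these cell types in the results below was not tested.

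**Figure D1:**
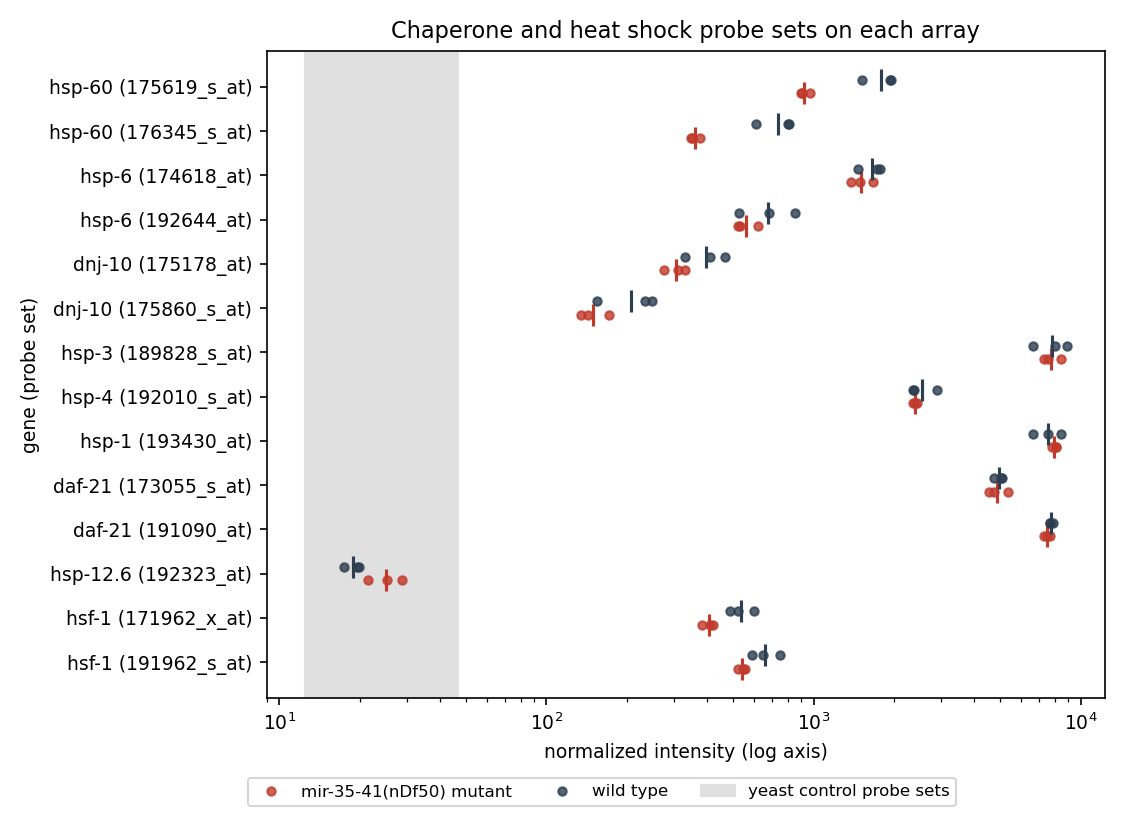
Normalized intensity (log axis) of the 14 probe sets on each array, with circles for arrays, upright ticks for group means on the log2 scale, and a grey band for the span of the yeast controls over all arrays. The mutant arrays of hsp-60 lie together below the wild type arrays, and hsp-12.6 lies inside the grey band.

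The mitochondrial chaperonin gene hsp-60 had the largest difference of the 9 genes. HSP-60 forms the folding chamber of the mitochondrial matrix. On its brighter probe set, 175619_s_at, normalized intensity was 899.6, 905.4 and 969.8 in the mutant, in the order of replicates 1, 2 and 3 that is kept throughout, and 1956, 1929 and 1519 in wild type. The groups did not overlap, and the mutant arrays lay closer together (SD 0.06 on the log2 scale) than the wild type arrays (SD 0.21). The gene fell by 0.95 (SE 0.12, n = 3 against 3, limma adjusted p = 0.0115), which is 1.94-fold, with a 95% interval from 1.59-fold to 2.36-fold. The second probe set, 176345_s_at, gave 349.1, 351.6 and 376.8 in the mutant and 812.7, 802.7 and 609.5 in wild type, with the same order of the arrays in wild type. It fell by 1.03 (SE 0.13, limma adjusted p = 0.0115), or 2.05-fold. Both carry the suffix with which Affymetrix marks probes shared between transcripts, and they are readings of the same RNA rather than replicates.

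Among the 22548 probe sets the hsp-60 pair took places 27 and 39 from the largest fall. By the limma p-value, in either direction, they took places 204 and 203 from the smallest. Without mutant replicate 2, mutant replicate 3 or wild type replicate 2 neither probe set passed. The adjusted p for 175619_s_at was then 0.0716, 0.0663 and 0.0612, with differences of -0.94, -0.99 and -0.90. Across all 16 alternatives the difference of that probe set stayed between -1.07 and -0.87. On mutant replicate 1 hsp-60 was at 899.6, the lowest of the 6 arrays. The first zygotic markers had a median deviation of 0.11 there, and of -0.32 and -0.40 on mutant replicates 2 and 3. On the wild type arrays it was 0.30, 0.09 and 0.13. For body wall muscle the mutant arrays gave -0.35, 0.26 and 0.37, beside 0.04, -0.06 and -0.43 in wild type. For pharynx they gave -0.23, 0.70 and 0.71, beside -0.41, -0.29 and -0.50. The part of embryo stage in the difference was not tested, and in whole embryos fewer cells of a type and less RNA per cell cannot be told apart.

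The partner genes of the mitochondrial folding system had smaller differences. HSP-6 is the mitochondrial HSP70, which pulls proteins in through the inner membrane and helps them to fold. On probe set 174618_at hsp-6 was at 1677, 1488 and 1378 in the mutant and 1734, 1774 and 1472 in wild type. The groups overlapped, and the difference was -0.13 (SE 0.12, 95% interval -0.41 to 0.14, limma adjusted p = 0.59). The dimmer probe set 192644_at, at 617.2, 520.4 and 531.6 against 853.0, 682.2 and 526.0, gave -0.28 with an interval from -0.71 to 0.15. Wild type replicate 3 was among the mutant values on this probe set and wild type replicate 1 was high.

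The gene dnj-10 encodes a DnaJ-type partner of mitochondrial HSP70. On 175178_at it was at 329.0, 276.7 and 311.7 in the mutant and 328.9, 466.1 and 409.6 in wild type. Mutant replicate 1 and wild type replicate 1 were level, and the other arrays separated the groups. The difference was -0.38 (SE 0.15, 95% interval -0.73 to -0.04, limma adjusted p = 0.218). On the second probe set, 175860_s_at, it was at 171.8, 134.5 and 142.6 against 154.3, 247.5 and 234.8. Here mutant replicate 1 was above wild type replicate 1 and below the other wild type arrays. This gave a difference of -0.48 (SE 0.20, limma adjusted p = 0.247). Both passed without the 2 arrays numbered 1, with differences of -0.57 and -0.80 (limma adjusted p = 0.026 and 0.00511), and both passed with array weights, at -0.50 and -0.67.

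Ratios within each array, from the brightest probe set of each gene, set hsp-60 against its partners. The log2 ratio of hsp-60 over hsp-6 was -0.90, -0.72 and -0.51 on the mutant arrays and 0.17, 0.12 and 0.04 on the wild type arrays. These sets did not overlap, and the ratio was lower in the mutant by 0.82 (difference -0.82), or 1.77-fold. The ratio of hsp-60 over dnj-10 was 1.45, 1.71 and 1.64 against 2.57, 2.05 and 1.89, a difference of -0.57. It was -0.37 without wild type replicate 1 and -0.30 without both arrays numbered 1. Each of these 2 ratios had p = 0.1 by the exact 2-sided permutation test, the smallest that 3 against 3 arrays allow, and p = 0.2 after adjustment over 4 ratios. The other pairs were hsp-4 over hsp-3, with a difference of -0.08 (exact permutation p = 0.4), and daf-21 over hsp-1, with -0.14 (exact permutation p = 0.3).

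**Figure D2:**
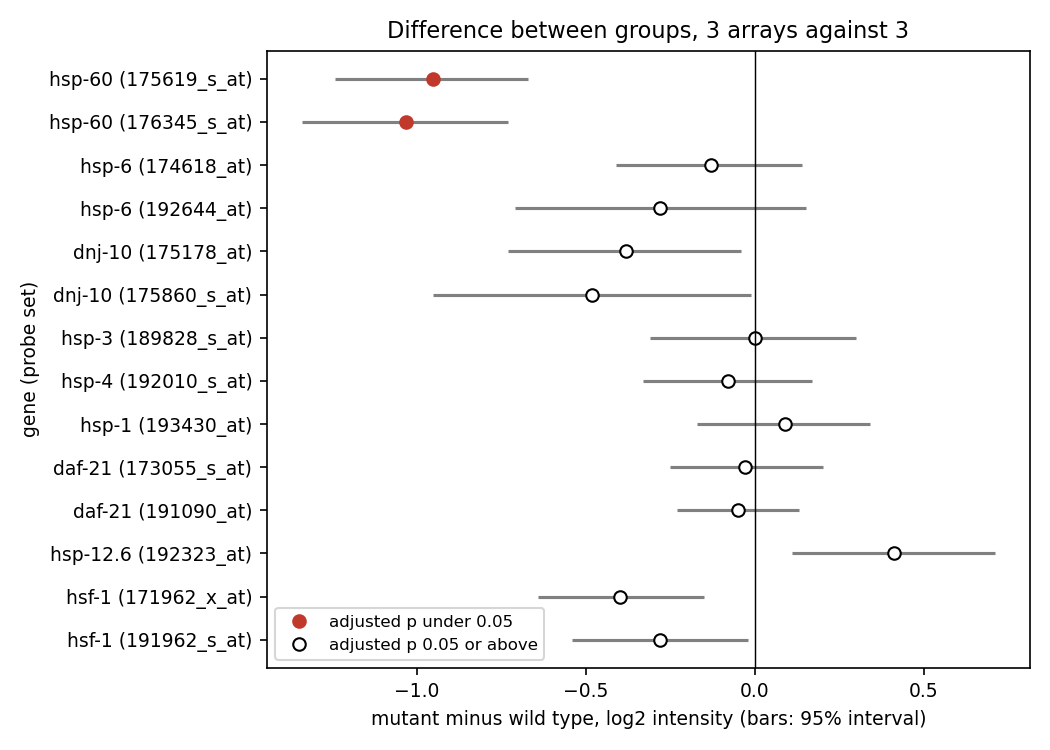
Mutant minus wild type difference in log2 intensity for the 14 probe sets, with 95% intervals from limma that are not adjusted for the number of probe sets. The filled points are the 2 probe sets of hsp-60, at -0.95 and -1.03, and all others are open.

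Of the genes on either side of hsp-60, one was also lower in the mutant. In the gene table of assembly WBcel235, used here for names and order only, Y22D7AL.10 and Y22D7AL.4 are the adjacent protein-coding genes. Y22D7AL.10 encodes the worm homolog of HSP10, the lid of the mitochondrial chaperonin chamber. Its brightest probe set, 176352_at, was at 1799, 1646 and 1548 in the mutant and 2393, 2279 and 2376 in wild type. No array overlapped. The gene fell by 0.50 (SE 0.09, n = 3 against 3, limma adjusted p = 0.0353), or 1.41-fold. Of its other probe sets, 171804_x_at fell by 0.54 (limma adjusted p = 0.0241) and 176369_s_at, dim in both groups, had a difference of -0.33 (limma adjusted p = 0.152). Both calls were lost with the replicate block (limma adjusted p = 0.0586 and 0.0504), and each was also lost without any single array other than mutant replicate 1, with differences of 176352_at between -0.52 and -0.45 over those 5 fits.

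The adjacent gene on the other side, Y22D7AL.4, did not pass. Its probe set 176328_at gave -0.13 (limma adjusted p = 0.578), and 176326_s_at was not above the yeast controls in wild type. Genes up to 3 places away on either side, looked up after the values were seen, did not pass either. Y22D7AL.9, on the far side of Y22D7AL.10, gave -0.28 and -0.25 on 2 probe sets, and Y22D7AL.6 gave 0.04. Beyond Y22D7AL.4, Y22D7AL.11 gave 0.42 and Y22D7AL.3 gave -0.06. Of these 5 genes the smallest adjusted p was 0.109 (limma).

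**Figure D3:**
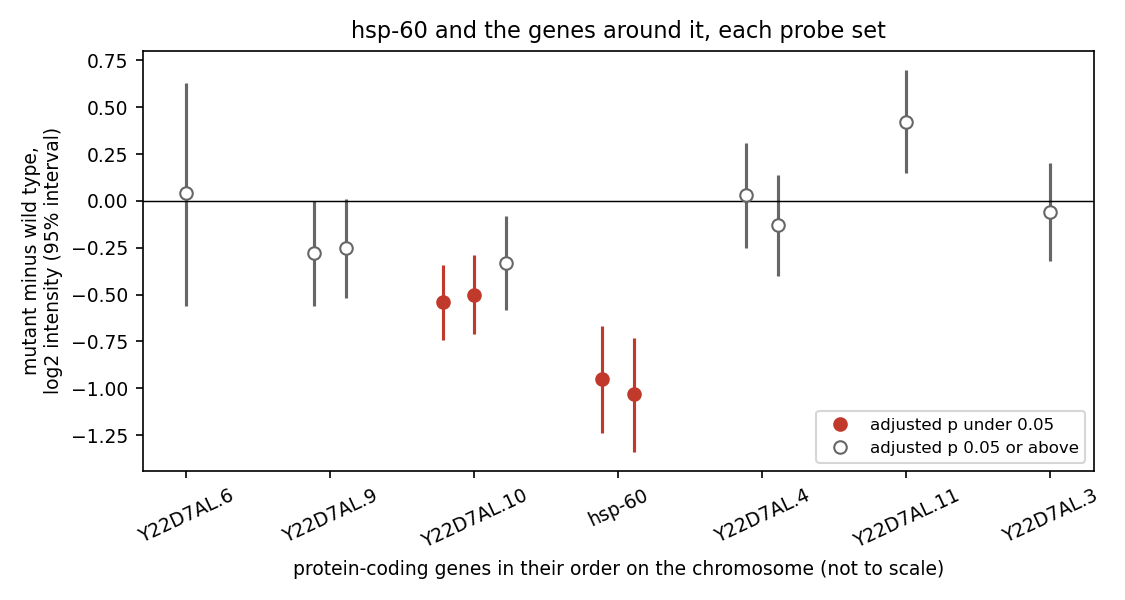
Mutant minus wild type difference in log2 intensity for each probe set of hsp-60 and of the 3 protein-coding genes on either side, in chromosome order and not to scale, with 95% intervals. The filled points, both probe sets of hsp-60 and 2 of the 3 of Y22D7AL.10, are side by side, and the points of Y22D7AL.4, the other adjacent gene, and of the genes farther out are open.

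The members hsp-3 and hsp-4, chaperones of the endoplasmic reticulum, had differences close to 0. HSP-3 and HSP-4 are the worm homologs of BiP, the HSP70 of that compartment, and HSP-4 is its stress-inducible form. The intensity of hsp-3 was 8469, 7329 and 7577 in the mutant and 8873, 8032 and 6652 in wild type, with overlap. Its difference was -0.00 (SE 0.13, 95% interval -0.31 to 0.30, limma adjusted p = 0.99). For hsp-4 the mutant arrays gave 2398, 2363 and 2447 and the wild type arrays 2900, 2388 and 2363. Only wild type replicate 1 stood above the rest, and the difference was -0.08 (SE 0.10, 95% interval -0.33 to 0.17, limma adjusted p = 0.734). The interval leaves room for hsp-4 to be between 0.797 and 1.12 times its wild type level. The sequences of these paralogs are alike and both probe sets are of the shared kind, so each may read some RNA of the other.

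The constitutive cytosolic chaperones likewise did not pass. HSP-1 is the constitutive cytosolic HSP70, and daf-21, called hsp-90 in current annotation, encodes HSP90, which holds kinases and receptors in active form. For hsp-1 the mutant arrays read 7827, 8065 and 8093, inside the wild type range of 8478, 7572 and 6636. Its difference was 0.09 (SE 0.11, 95% interval -0.17 to 0.34, limma adjusted p = 0.718). The daf-21 probe set 191090_at read 7509, 7269 and 7670 in the mutant and 7690, 7679 and 7864 in wild type. The groups did not overlap there, but the gap was narrow, and the difference was -0.05 (SE 0.08, 95% interval -0.23 to 0.13, limma adjusted p = 0.776). On 173055_s_at the groups overlapped, with 5336, 4546 and 4725 against 5060, 4748 and 5041, and the difference was -0.03 with an interval from -0.25 to 0.20.

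The small heat shock gene hsp-12.6, a target of the insulin pathway factor DAF-16, was not above the controls in either group. It read 21.5, 28.9 and 25.3 in the mutant and 17.4, 19.8 and 19.5 in wild type. Every mutant array was above every wild type array, and the probe set did not pass (limma adjusted p = 0.145). The group means of 4.65 and 4.24 lay within the ranges of the 5 yeast controls, 3.73 to 5.34 in the mutant and 3.75 to 5.42 in wild type, so the size of a change is not given and nothing is read from its passing in 3 alternatives, without mutant replicate 1, without both arrays numbered 1 and with array weights (limma adjusted p = 0.0365, 0.0374 and 0.0235).

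The heat shock factor gene hsf-1 had lower readings in the mutant on both probe sets, and neither passed. On 171962_x_at it read 410.1, 383.8 and 419.8 in the mutant and 597.9, 487.6 and 520.2 in wild type. The groups did not overlap, and the difference was -0.40 (SE 0.10, 95% interval -0.64 to -0.15, limma adjusted p = 0.0944). On 191962_s_at it read 555.7, 521.9 and 545.1 against 750.7, 647.4 and 587.2, again without overlap, with a difference of -0.28 (SE 0.11, limma adjusted p = 0.223). Wild type replicate 1 was the highest array on both. Of the alternatives only array weights brought 171962_x_at past the threshold, at -0.32 (limma adjusted p = 0.0405).

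Related genes of the same systems were read through 5 lists of 91 genes, of which 84 were measured on a probe set of their own, each by its brightest probe set. Of these, 1 rose and 2 fell, beside 3.04% higher and 0.624% lower over all 17309 genes read in the same way. The median difference over all genes was -0.05.

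In mitochondrial import and quality control, Y22D7AL.10 was the 1 fall among 16 genes and none rose. The list median was -0.25, and 12 of the 16 lay below 0, as did 10506 of all 17309 genes. Both prohibitin genes, phb-1 and phb-2, whose products form rings in the inner membrane, had differences of -0.48 and -0.37 (limma adjusted p = 0.0895 and 0.0691). The 5 import translocase genes lay between -0.43 and 0.06, and the 4 genes of mitochondrial proteases between -0.33 and 0.14. These subgroups, and those named below, were drawn after the values were seen. The summed intensity of the list ran from 15316 to 16895 in the mutant and from 17340 to 21308 in wild type. These sums did not overlap, but they hold Y22D7AL.10, at 1799 on mutant replicate 1 and 2393 on wild type replicate 1. Without that gene the sums of the groups overlap. At an unadjusted p under 0.05 (limma), 4 of the 16 were lower and none higher, beside 9.65% lower and 10.1% higher over all genes. The median deviation of the list was -0.01, -0.20 and -0.15 on the mutant arrays. On the wild type arrays it was -0.00, 0.03 and 0.19, so that the arrays numbered 1 were level and the others were not. The part of embryo stage in these values was not tested. Of 7 measured regulators of the mitochondrial stress response none passed. The largest differences were those of haf-1, an inner membrane peptide exporter, at -0.40, and atfs-1 at -0.38 (limma adjusted p = 0.254 and 0.351). One had an unadjusted p under 0.05, that of haf-1.

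In the endoplasmic reticulum list dnj-20 was the 1 fall among 22 genes, with none higher and a list median of -0.10. At an unadjusted p under 0.05 (limma), 6 of the 22 were lower and 1 higher. Over all genes read by their brightest probe set, 9.65% were lower and 10.1% higher at that level. The summed intensity of the list ran from 55554 to 60325 in the mutant and from 60520 to 62892 in wild type, without overlap. DNJ-20 is a DnaJ-type cofactor. It read 131.2, 110.7 and 121.0 in the mutant and 259.4, 184.4 and 227.3 in wild type. The groups did not overlap, and it fell by 0.88 (SE 0.14, n = 3 against 3, limma adjusted p = 0.0266), or 1.84-fold. The call was lost without mutant replicate 2 or 3 (limma adjusted p = 0.126 for each) and without wild type replicate 1 or 3 (limma adjusted p = 0.0522 and 0.103). The 3 stress sensor genes ire-1, pek-1 and atf-6 lay between -0.14 and 0.02, and the 4 genes of protein disulfide isomerases between -0.38 and -0.02.

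In the cytosolic list none of 25 genes passed, with a median of -0.09. At an unadjusted p under 0.05, 3 of the 25 were higher and 3 lower, beside 10.1% higher and 9.65% lower over all genes read by their brightest probe set. The 8 subunit genes of CCT, the chaperonin of the cytosol and so the counterpart of HSP-60, lay between -0.06 and 0.79, with 1 of them below 0. The highest was cct-8, at 704.7, 579.2 and 492.8 against 467.7, 263.5 and 316.5. Its arrays did not overlap, and the difference was 0.79 (SE 0.23, limma adjusted p = 0.124). It passed with the replicate block (limma adjusted p = 0.0484), without both arrays numbered 1 (limma adjusted p = 0.0111) and with array weights (limma adjusted p = 0.0205). The DnaJ-type cofactor gene dnj-13 was the other end of the list, at 3514, 4026 and 3883 against 6187, 4505 and 5747, with a difference of -0.51 (SE 0.14, limma adjusted p = 0.0996), and its second probe set gave -0.70.

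Among small and inducible heat shock genes hsp-17 was the 1 rise and none fell. 14 of 20 listed genes were measured on a probe set of their own, with a median of -0.09. The small heat shock gene hsp-17 read 264.0, 442.4 and 377.5 in the mutant and 137.9, 135.2 and 152.0 in wild type. No array overlapped, and it rose by 1.32 (SE 0.19, n = 3 against 3, limma adjusted p = 0.0178), or 2.5-fold. Without any single array other than mutant replicate 1 its adjusted p was 0.0501 to 0.0984, with differences of 1.16 to 1.37.

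The genes of the classical heat response did not pass. The hsp-16 family encodes small heat shock proteins that HSF-1 switches on in hot worms. The 2 members with a probe set of their own, hsp-16.2 and hsp-16.41, differed by -0.20 and -0.24. The probe set shared by hsp-16.1 and hsp-16.11 read 3178, 3849 and 4817 in the mutant and 4565, 3749 and 5296 in wild type, with a difference of -0.21 (95% interval -0.65 to 0.24). The one shared by hsp-16.48 and hsp-16.49 differed by -0.28 (95% interval -0.65 to 0.08). For F44E5.4 and F44E5.5, which encode inducible cytosolic HSP70, 2 shared probe sets each gave -0.08.

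**Figure D4:**
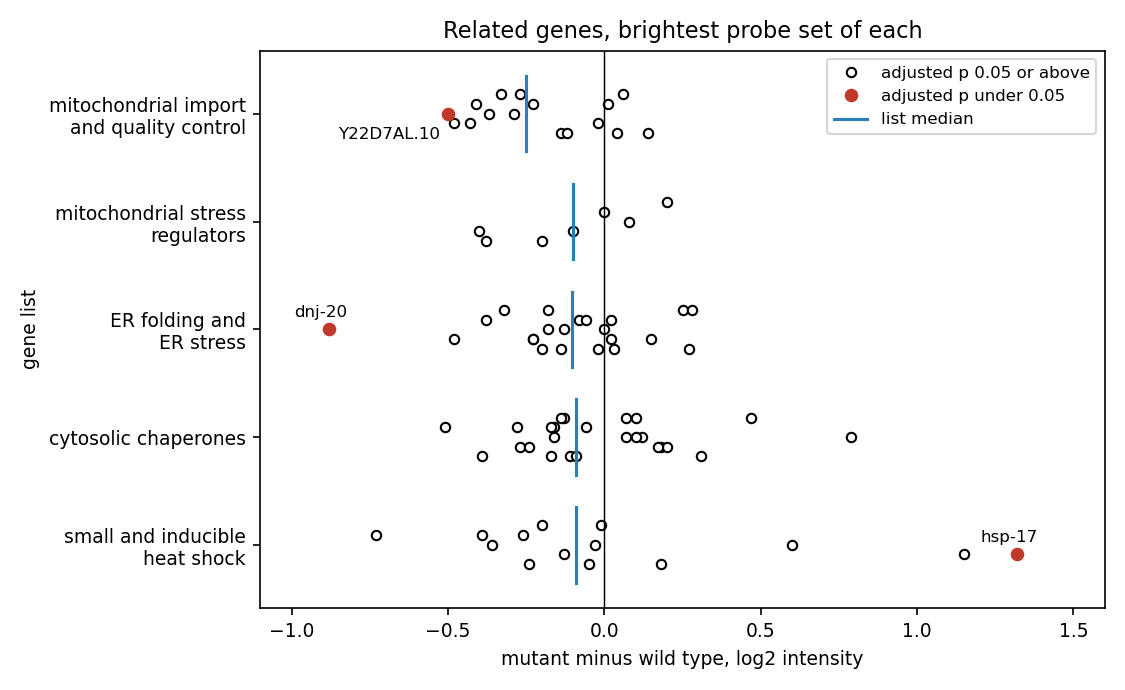
Mutant minus wild type difference in log2 intensity of the 84 measured related genes in 5 lists, with a blue line for each list's median. The 3 filled points are Y22D7AL.10 and dnj-20, which fell, and hsp-17, which rose.

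The arrays' pattern of hsp-60 was next set against all other probe sets of 1 gene. Likeness was the root mean square difference between log2 profiles over the 6 arrays, each centred on its own mean. The second hsp-60 probe set differed by 0.044. The nearest others were nhr-68, a nuclear hormone receptor gene, at 0.114, mab-7 at 0.15 and fbn-1, annotated as a fibrillin homolog, at 0.156. For nhr-68 the arrays read 263.4, 253.7 and 250.6 in the mutant and 511, 451.3 and 364.3 in wild type, and it fell by 0.78 (limma adjusted p = 0.0321). The gene mab-7 fell by 0.97 (limma adjusted p = 0.00928), and fbn-1 had a difference of -0.73 (limma adjusted p = 0.0721). These genes were chosen for a profile like that of hsp-60 on the same arrays. Their lower values in the mutant follow from that choice and are not a separate result. The probe sets of Y22D7AL.10 differed from hsp-60 by 0.265, 0.277 and 0.354.

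The Gene Ontology columns of the deposited table, looked up after the values were seen, place the members in a wider annotation. Of 101 probe sets annotated to protein folding, 9 are of members, from 5 genes. The 6 that passed the threshold were all lower in the mutant, those of hsp-60, Y22D7AL.10, dnj-20 and fkb-5, which encodes a prolyl isomerase. The gene fkb-5 fell by 0.92 (SE 0.14, limma adjusted p = 0.0227). They make 5.94% of the annotated probe sets, beside 0.648% lower over all probe sets, and 4 of the 6 are of the adjacent genes hsp-60 and Y22D7AL.10. No test of this share was made. Of 293 probe sets annotated to the mitochondrion, 7 rose (2.39%) and 3 fell (1.02%), beside 2.83% and 0.648% over all probe sets. The median of the 293 was -0.07. Those that fell were both of hsp-60 and that of ced-9, a cell death inhibitor, at -0.67. In the narrower annotation to the mitochondrial matrix, 4 of 43 rose (9.3%) and 2, both of hsp-60, fell (4.65%). These shares were not tested. Annotated to the response to heat were 72 probe sets, of which 6 are of the members dnj-10, hsf-1, hsp-1 and hsp-12.6. Of the 72, 3 rose (4.17%, beside 2.83% over all probe sets) and none fell. None of those 3 is of a member: they are of hsp-17, of ZK1128.7, deposited as alpha-B-crystallin, which rose by 0.97 (limma adjusted p = 0.0182), and of the metallothionein gene mtl-1.

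**Figure D5:**
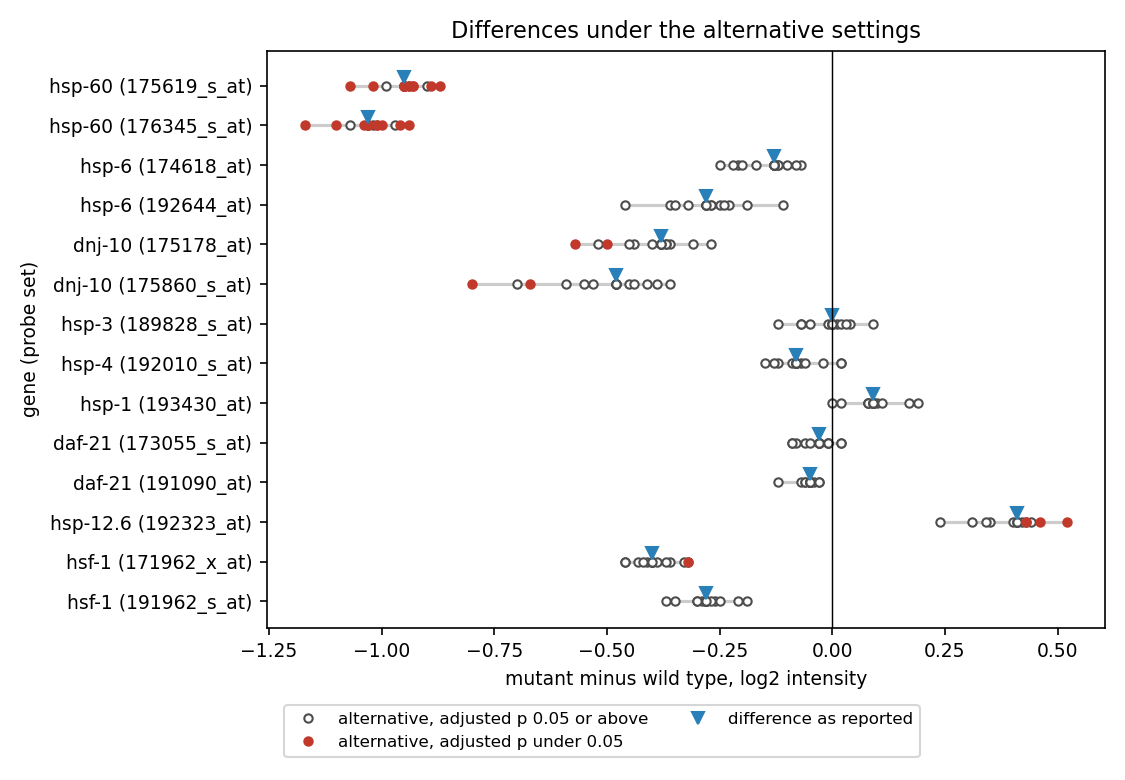
Mutant minus wild type difference in log2 intensity of the 14 probe sets under each alternative setting (circles, filled where the adjusted p was under 0.05) and as reported (triangles). The hsp-60 circles stay between -1.17 and -0.87, while those of hsp-1, hsp-3, hsp-4 and 173055_s_at of daf-21 reach both sides of 0.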

How the data were processed

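The authors deposited a table of normalized linear intensity, with a column for each array, and log2 values in the series matrix, which equal the log2 of the former within 5.66e-06. Affymetrix Expression Console was used, per the submitters' processing notes, while its version, its algorithm and any background correction were not given in the sources used here. Such normalization can hide changes in total RNA per embryo. Some label descriptions name insect embryo stages and were not used. From log2 intensity with no pseudocount, 77 control probe sets were left out of 22625. The genotypes were set against each other in limma 3.58.1 (lmFit, then eBayes; R 4.3.3), 2-sided and with no covariate, and the procedure was tested on simulated data. The number of arrays limits the precision. Exact permutation tests served for ratios. Names came from the deposited symbols and a WBcel235 gene table. Members, lists and tests were chosen with earlier results of these data known. Named were all members, up to 4 past the threshold from each related list or else the 2 largest differences, the 3 nearest profiles to a member past the threshold, and genes said to be chosen after the values were seen. Alternatives were the replicate block, each array or both numbered 1 left out, the series matrix, quantile normalization, median centring, the dimmest 25% left out, a pseudocount of 16, an intensity trend with robust fit, array weights, and 1 probe set per gene.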

Additional observations from a re-analysis of the deposited data

How the results depend on the processing

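Both hsp-60 probe sets kept their direction in all alternatives and lost the threshold without mutant replicate 2, mutant replicate 3 or wild type replicate 2, fits with fewer arrays by construction. The cause of the other changes was not tested. The count of lower members past the threshold (2) was 0 to 2 without 1 array, 4 without both arrays numbered 1, 5 with array weights and 1 with 1 probe set per gene, where hsp-60 has 1 by construction. That of higher members (0, with 1 higher member at an unadjusted p under 0.05, limma) was 0 to 1 without 1 array and 1 without both arrays numbered 1 and with array weights. Higher related genes (1) numbered 0 to 3 without 1 array, 3 with the replicate block, 5 without both arrays numbered 1 and 6 with array weights. Lower ones (2) numbered 0 to 4, 1, 9 and 11 in the same order. The signs of 4 small differences turned: hsp-1 (-0.00 to 0.17 without 1 array), hsp-3 (-0.12 to 0.09 without 1 array, 0.03 without both arrays numbered 1), hsp-4 (-0.13 to 0.02, and 0.02) and daf-21 on 173055_s_at (-0.09 to 0.02 without 1 array, 0.02 after quantile normalization). Same-numbered arrays had correlations of 0.2, 0.02 and 0.09 between their deviations from the group means, and not every array correlated best with its own number. With so few arrays these values cannot decide whether the numbers pair them. With the replicate block hsp-60 had adjusted p-values of 0.0261 and 0.0249 (limma), and calls over all probe sets went from 639 higher and 146 lower to 726 and 156. Over all probe sets 102 to 1534 were higher and 7 to 870 lower without 1 array (the highest of both without mutant replicate 1), 1955 and 1553 without both arrays numbered 1, 2228 and 1967 with array weights, and 683 and 291 after median centring. hsp-12.6 is limited by signal over background.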
